A study of Helianthus annuus with 142 samples.

Results

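Leaf RNA of the 4 sunflower (Helianthus annuus) hybrids that have line SF109 as their first-named parent was compared with leaf RNA of the other 12 hybrids of the same crossing scheme. The hybrids of SF109 are SF109_SF279, SF109_SF317, SF109_SF326 and SF109_SF342. They were taken by name, and they gave 24 of the 142 RNA-seq libraries of the series. The 12 hybrids of SF009, SF092 and SF193 with the same second-named parents gave 70 libraries. A further 2 hybrid libraries, SF009_SF279 control replicate 1 and SF092_SF317 stress replicate 3, were left out because their labels were in doubt.

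The series holds 8 lines and 16 hybrids, each line of SF009, SF092, SF109 and SF193 having been combined with each of SF279, SF317, SF326 and SF342. The names do not say which parent bore the seed, so the parents are called first-named and second-named here. Control plants were kept at a fraction of transpirable soil water (FTSW) of 1, and stressed plants were taken at an FTSW of 0.1. Plants were grown 1 to a pot, each library of leaves is taken here as 1 plant, and every hybrid had 3 per water supply before the exclusions. By label each hybrid had its own genotype, shared by its control and stressed plants. A difference between first-named parents here therefore covers every allele by which SF109 differs from SF009, SF092 and SF193.

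A first-generation hybrid receives 1 genome from each parent, so an allele that is silent in the line can be covered by the allele of the other parent, and a transcript made by 1 parent alone is usually diluted in the hybrid. In drying soil, leaves of sunflower close their stomata, grow more slowly and change the transcription of a large part of their genes, in part through abscisic acid. How large that response is, and which genes join it, is known to differ between genotypes. The identifiers in the files are not paired with symbols or functions, and 0 of them matched the RefSeq gene table at hand, so genes are given by identifier and position, and the labelled tissue could not be checked against leaf marker genes.

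Total counts per library ran from 4574679 to 13044565 in the SF109 hybrids (median 6421452) and from 3286863 to 13511377 in the other hybrids (median 7053669). The parentage was checked with genes that were on in 1 line alone, with a median of at least 1 CPM (counts scaled to a library of standard size) in that line and under 0.1 CPM in each of the other 7. Of 53 genes on in line SF109 alone, between 54.7% and 79.2% (median 67.9%) were at 0.5 CPM or more in each of the 24 SF109 hybrid libraries, against 0% to 9.43% in the other 70. No library of either side fell within the range of the other, so all 24 libraries carried transcripts of SF109.

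The same check went against the labels of 1 comparison hybrid. Of 66 genes on in line SF009 alone, the 5 libraries of SF009_SF279 used here had 0% to 18.2%, while the 18 libraries of the other SF009 hybrids had 68.2% to 95.5%, and hybrids without SF009 had 0% to 21.2%. The same 5 libraries did carry transcripts of SF279, with 67.8% to 81.4% of 59 SF279-only genes. The left-out library labelled SF009_SF279 control replicate 1 held 78.8% of the SF009-only and 81.4% of the SF279-only genes. By this check it carried transcripts of both labelled parents, unlike the 5 libraries used. A second mark concerned SF326: the libraries of SF009_SF326, SF092_SF326 and SF109_SF326 had 20.3% to 27.1% of the SF279-only genes, and the 6 libraries of SF193_SF326 had 0%. They also had 13.3% to 20% of the SF317-only and 14.8% to 22.2% of the SF342-only genes. In SF193_SF326 these shares were 10% and 0% to 3.70%. Only 2 genes were on in SF326 alone, too few for this check. The libraries of SF109_SF326 and SF092_SF326 had 0% of them, those of SF009_SF326 0% to 50% and those of SF193_SF326 50% to 100%. The libraries of SF009_SF279 and of the SF326 hybrids stayed under their labels. Results computed again without SF009_SF279 are given with both values where they moved by over 1.5 times or lost their call.

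The first question was how leaf expression in the SF109 hybrids differed from that in the other hybrids at equal second parent and water supply. In edgeR's quasi-likelihood test with Benjamini-Hochberg adjustment, 5765 genes were higher and 4390 lower in the SF109 hybrids, which is 16.7% and 12.7% of 34590 genes tested, or 29.4% in all. Most of these differences were small. Higher genes had a median of 0.56 on the log2 scale and lower genes one of -0.51, and 1708 and 1003 of them passed a 2-fold difference in size. Tested against a difference of 1.5-fold, 1871 genes were higher and 1104 lower (8.6% of the genes tested). The median over all genes tested was 0.01 on the log2 scale.

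These tests count plants, and they speak of these 16 hybrids. With 1 mean per hybrid, so that the spread between hybrids of the other first parents enters the error, limma called 648 genes higher and 853 lower at the same adjusted p. In an additive model without a mean for each hybrid, edgeR called 3682 higher and 5890 lower, so the share of higher genes among calls was 38.5% there and 56.8% with a mean per hybrid. The same contrast, which shares these libraries, gave 5485 higher and 4220 lower genes for hybrids of SF009, 6272 and 5125 for SF092, and 7460 and 5092 for SF193. Without SF009_SF279 the counts were 5669 and 4648.

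The difference was seen at either water supply. In control plants alone 4080 genes were higher and 3051 lower (20.6%), and in stressed plants alone 4545 and 3451 (23.1%). Genes called higher over both had a median log2 difference of 0.54 in control and 0.57 in stressed plants, and genes called lower had -0.50 and -0.51. Against the hybrids of each comparison parent in turn, 4816 genes were higher and 4547 lower than in hybrids of SF009 (27.1%), 5354 and 5287 relative to SF092 (30.8%), and 4997 and 6074 relative to SF193 (32%). These 3 comparisons share the SF109 libraries.

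**Figure D1:**
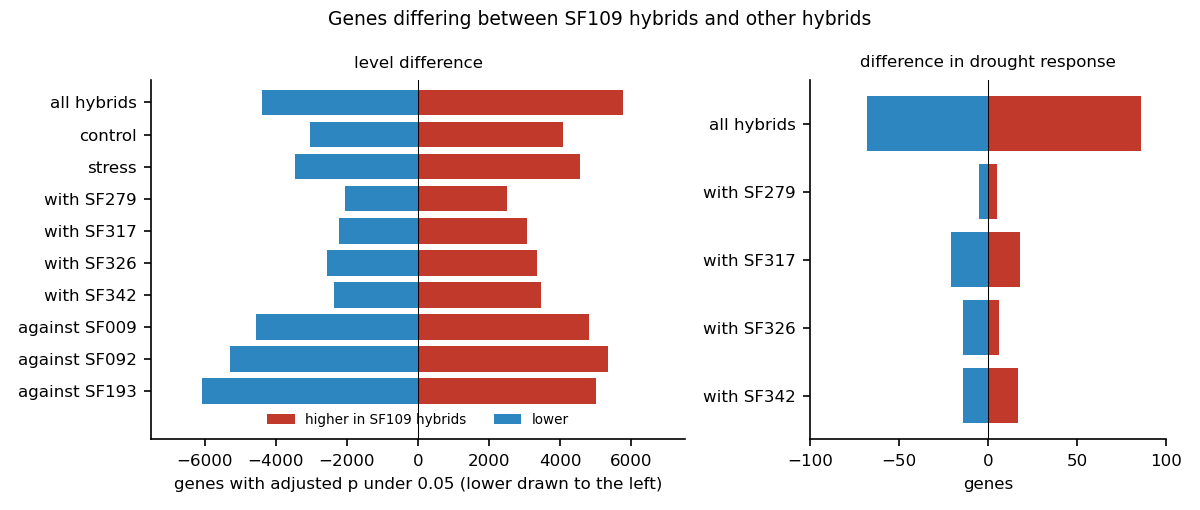
Number of genes with an adjusted p under 0.05, higher in SF109 hybrids to the right and lower to the left, for the level (left panel) and for the drought response (right panel; its axis covers 100 genes each way). Bars are for all hybrids and each second-named parent, and on the left also for each water supply and each comparison parent; 5765 and 4390 genes differed in level, and 86 and 68 in drought response.

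For part of the genes the SF109 difference varied between the labelled second-named parents. With SF279 as second parent 2515 genes were higher and 2050 lower (13.2%), with SF317 3057 and 2211 (15.2%), with SF326 3357 and 2573 (17.1%), and with SF342 3460 and 2363 (16.8%). In a joint test, the SF109 difference varied with the second parent for 3875 genes (11.2%), beside 5619 for SF009, 3071 for SF092 and 6339 for SF193 under the same test. Of the 5765 genes called higher, 4680 (81.2%) had a positive difference with all 4 second parents, and of the 4390 lower genes 3599 (82.0%) had a negative one with all 4. Over all genes tested, 37.0% had 1 sign throughout. The joint count fell without any 1 second parent, to 2393 without SF326, 2757 without SF317, 2892 without SF342 and 2949 without SF279. It was 2035 without the plants numbered 3, and 2234 without both SF009_SF279 and the SF326 hybrids. The parentage of these hybrids is in doubt, and this cannot be told apart from an effect of the second parent. The same holds for the counts of SF009, SF092 and SF193, which were not computed without these hybrids.

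A stricter description asks for hybrid means that do not overlap. For 368 genes, 1.06% of those tested, each of the 4 SF109 hybrids had a mean above all 12 others, and for 283 genes (0.818%) each lay below all 12. The same counts were 131 and 139 for hybrids of SF009, 575 and 403 for SF092, and 674 and 234 for SF193. The counts for SF109 thus lay between those for SF009 and SF092 in either direction. The SF009 counts include SF009_SF279, whose libraries carried few SF009-only transcripts, and none of these counts was computed without it.

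At the extreme stood genes that were on with SF109 and off without it. In 19 of 58033 genes the median over plants was at least 1 CPM in each of the 4 SF109 hybrids and under 0.1 CPM in each of the other 12. Their mean level in the SF109 hybrids ran from 1.47 to 13.9 CPM (median 2.83), and 16 of the 19 were at 1 CPM or more in line SF109, with a median of 5.41 CPM. They lay on 11 chromosomes, with at most 4 on any, chromosome 12. Hybrids of SF193 had 54 such genes, those of SF092 25 and those of SF009 0. The SF009 count required all 4 of its hybrids, and the libraries of SF009_SF279 carried few SF009-only transcripts. None of these counts was computed without SF009_SF279. The reverse pattern, off in the SF109 hybrids and on in all others, was met by 1 gene, HanXRQChr07g0186321. It was met by 2 genes for SF009, 3 for SF092 and 0 for SF193. That pattern also needs a gene to be silent from all 4 second parents, so the 19 and the 1 are not comparable.

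HanXRQChr09g0264831 lies on chromosome 9 (170228904 to 170230965 in the coordinates of the deposited count table, minus strand) and is 1 of those 19 genes. In the SF109 hybrids it stood at 10.6 CPM in the lowest, 13.9 in the median and 17.1 in the highest of 12 control plants, and at 12.2, 14.1 and 18.1 CPM in the 12 stressed plants. In the other 70 hybrid libraries the highest value was 0.28 CPM, and 53 of them had no read. The SF109 range therefore lies clear of the rest in both water supplies. Pooled over libraries, the level was 408 times that of the other hybrids (95% interval from counting 257 to 689). The gene passed the filter on low counts only through the SF109 hybrids, so its test is not counted here. In line SF109 the gene had 19.1 to 29.5 CPM in 6 plants, above all its hybrids, and in the other 7 lines at most 0.59 CPM.

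HanXRQChr13g0400651 (chromosome 13, 88857799 to 88860062, minus strand) was also high in all SF109 hybrids. Control plants had 21.8, 29.1 and 39.6 CPM (lowest, median, highest of 12) and stressed plants 17.3, 25.2 and 30.9. Hybrids of SF092 and SF193 had 7 reads in 47 libraries. Hybrids of SF009 had an intermediate level of up to 9.03 CPM in control and 6.60 in stressed plants. Of these, SF009_SF279 stood at 0 in all 5 libraries. The pooled ratio was 23.6 (95% interval from counting 21.7 to 25.7). The fitted log2 difference, which averages hybrids on the log scale, was 8.46 (adjusted p 1.22e-33, edgeR). Its size is not fixed by the data, because hybrids of SF092 and SF193 were near 0, and limma voom gave 7.15. Line SF109 had 28.2 to 57.5 CPM and line SF009 1.42 to 46.9, while the other 6 lines were at 0.27 or less.

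Among the 1815 lower genes whose mean log2 CPM reached 1 and which had 1 sign in all 8 combinations of second parent and water supply, the largest fall was that of a short, abundant gene model, HanXRQChr16g0516601 (chromosome 16, 111608169 to 111608478, plus strand, 310 bases). In the SF109 hybrids the 12 control plants had 0.60 to 40.1 CPM (median 2.60) and the 12 stressed plants 1.14 to 85.5 CPM (median 3.09). The other hybrids had medians of 1802 CPM in control and 1634 CPM in stressed plants. The groups overlapped through 1 hybrid, SF009_SF279, whose 5 libraries had 0.66 to 9.1 CPM, while the remaining 11 comparison hybrids had 753 CPM or more in every library. The 40.1 and 85.5 CPM were from 1 control and 1 stressed plant of SF109_SF342, whose medians were 1.62 and 3.21 CPM. Line SF342 had 101 to 132 CPM. The fitted log2 difference was -7.79 ± 0.38 (SE; adjusted p 7.70e-28, edgeR), and it varied with the second parent (adjusted p 9.77e-08). Without SF009_SF279 it was -8.53. Line SF109 had 1.02 to 10.7 CPM, SF279 and SF317 at most 7.04, and SF009, SF092, SF193 and SF326 at least 1304. SF109_SF326 had 0.60 to 9.0 CPM, line SF326 1821 CPM or more, and SF193_SF326 2065 to 3055 CPM. The second parent of SF109_SF326 is in doubt. Its libraries carried 20.3% to 27.1% of the SF279-only, 16.7% to 20% of the SF317-only and 16.7% to 22.2% of the SF342-only genes.

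HanXRQChr07g0186321 (chromosome 7, 3446420 to 3450048, minus strand) had no read in 21 of 24 SF109 hybrid libraries and 1 read in each of 3 stressed plants. The other hybrids had 1.66 to 6.35 CPM in control plants (median 3.37) and 1.18 to 4.96 CPM in stressed plants (median 2.42). No value of the SF109 hybrids reached the lowest of these. Pooled, the level was 163 times higher in the other hybrids, with a 95% interval from counting of 55.5 to 789. The gene passed the filter on low counts only through the other hybrids, so its test is not counted here. In the lines, SF009, SF092 and SF193 had 2.21 CPM or more in every plant. Line SF109 had at most 0.15 CPM, and SF279, SF317 and SF342 had at most 0.18 CPM, so neither parent of those 3 SF109 hybrids made it in quantity. In line SF326, 5 of 6 plants had none, and the 3.03 CPM of the sixth came from stress replicate 3, whose transcripts went against its label.

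**Figure D2:**
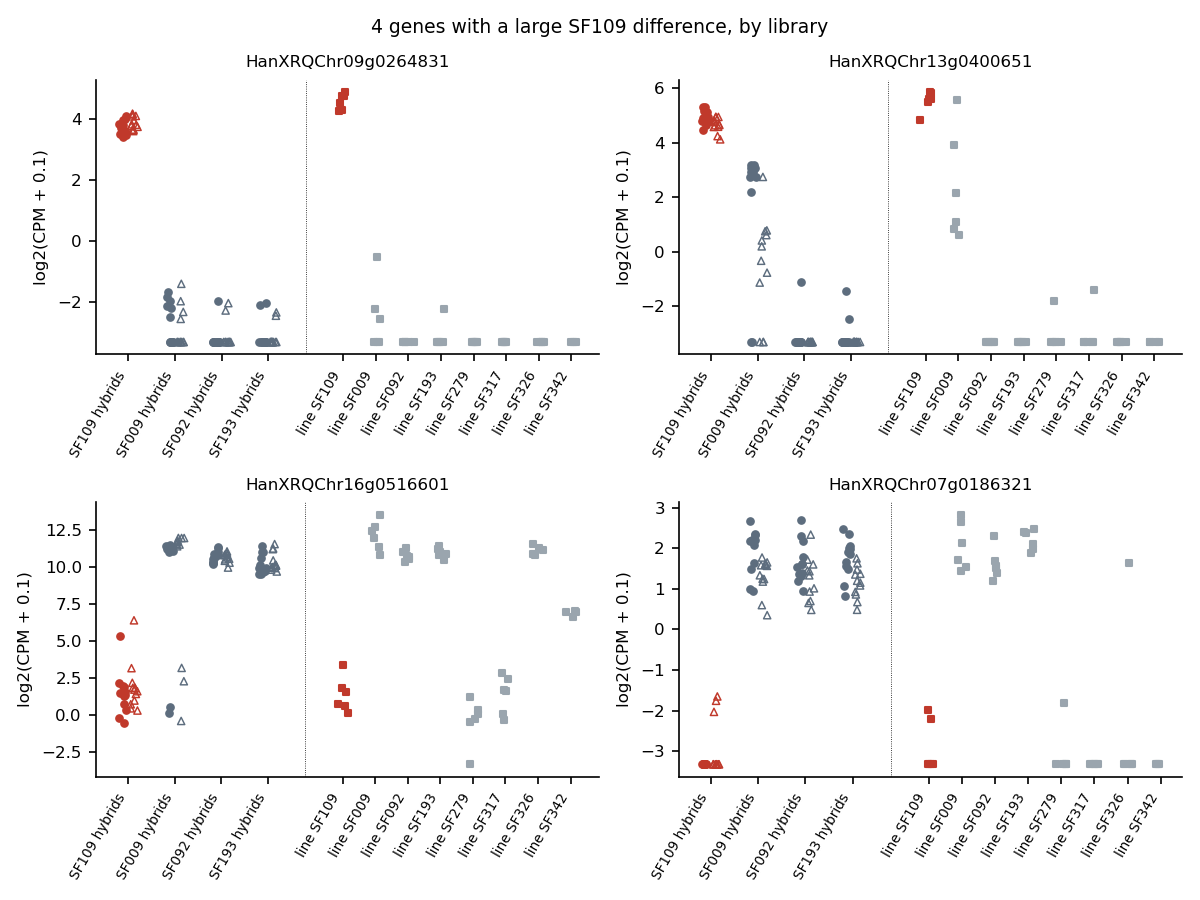
Level of 4 genes in every library, as log2(CPM + 0.1), for the hybrids of each first-named parent (left of the dotted line; filled circles are control plants, open triangles stressed plants) and for the 8 lines (squares); SF109 and its hybrids are in red. A level of 0 CPM is drawn at log2(0.1), and no hybrid library was at 0 in HanXRQChr16g0516601. Among hybrids, those of SF109 overlap others only in HanXRQChr16g0516601, through the 5 libraries of SF009_SF279.

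Whether the SF109 hybrids resembled line SF109 was asked in separate plants. Line SF109 was compared with lines SF009, SF092 and SF193, and 4480 genes were higher and 4474 lower in it (25% of 35877 genes tested). Of 5707 genes higher in the SF109 hybrids and tested in both, 92.0% had the same sign in the lines and 2965 (52.0%) were called higher there, with 51 called lower. Of 4380 genes lower in the hybrids, 92.2% had the same sign and 2608 (59.5%) were called lower, with 47 called higher. Among all 34033 genes tested in both, 74.7% had the same sign, 12.3% were called higher in the line and 12.9% lower. Across these genes, which are not independent replicates, Pearson's r of the 2 log2 differences was 0.75. Without line SF009, the same-sign shares were 88.0% and 90.5%, beside 71.5% of all genes.

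In classes formed by the size of the difference in the line, the median difference was smaller in the hybrids. Such a choice of genes enlarges the line medians. Genes called higher in the hybrids had medians of 0.55 there and 0.68 in the lines, and genes called lower -0.51 and -0.87. The 789 genes over 8-fold higher in line SF109 had a median log2 difference of 4.15 in the line and 2.15 in the hybrids, and 653 (82.8%) of them were called higher in the hybrids. The 1558 genes over 8-fold lower in the line had medians of -5.61 and -1.55, and 842 (54.0%) were called lower in the hybrids. For genes 2-fold to 8-fold higher the medians were 1.76 and 0.73, and for those 2-fold to 8-fold lower -1.64 and -0.53. Genes over 8-fold lower include some at or near 0 in line SF109, whose log size depends on the floor. Genes silent without SF109 could enter the hybrid test only through the SF109 hybrids, which favours calls in the higher classes. The shares called are therefore not comparable between higher and lower classes, and the classes were not tested against each other. Calls in the opposite direction were 1 of the 789 and 25 of the 1558.

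**Figure D3:**
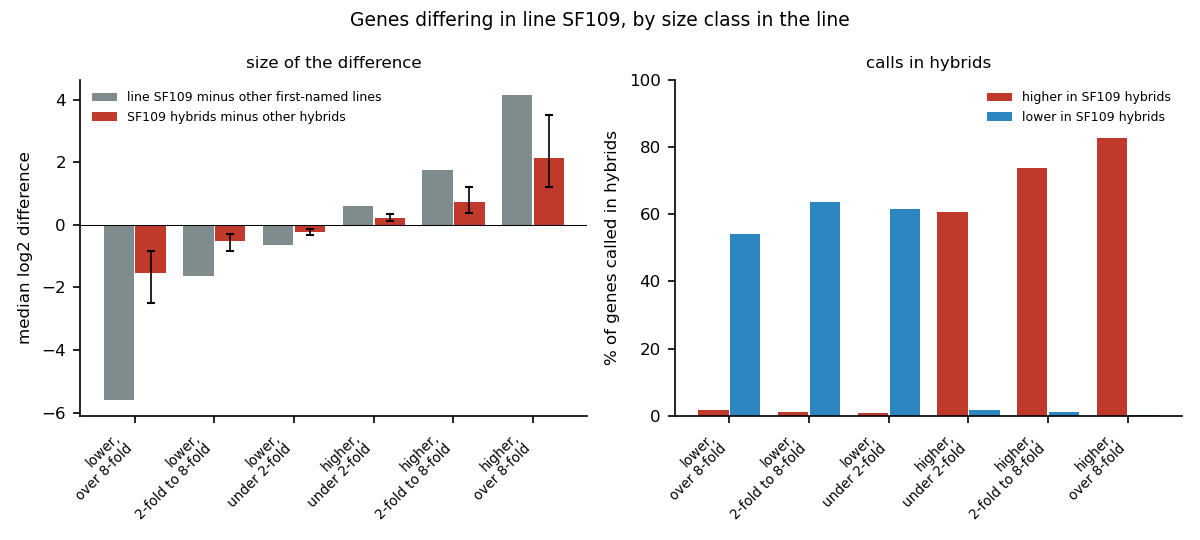
Genes that differed between line SF109 and the other first-named lines, by size class of the difference in the line. Left, median log2 difference in the line (grey) and in the hybrids (red, with the quartiles over genes as error bars). Right, percentage of each class called higher or lower in the SF109 hybrids, from 54.0% lower in the class over 8-fold lower to 82.8% higher in the class over 8-fold higher. Genes silent without SF109 were tested only through the SF109 hybrids, so these percentages are not comparable between higher and lower classes.

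Genes that only SF109 among the lines had on or off were followed into the hybrids. Of the 53 genes on in line SF109 alone, 36 passed the filter on low counts, which they could do only through the SF109 hybrids, so their calls are not counted here. The median level over the 53 genes was 1.84 CPM in the line, 0.94 CPM in its hybrids and 0.01 CPM in other hybrids, and the median ratio of the hybrids to the line was 0.44. Levels of lines and hybrids were scaled in separate sets. Of 150 genes off in line SF109 alone, all 150 were tested, and 136 were called lower and 2 higher in the SF109 hybrids, beside 12.7% lower and 16.7% higher of all genes tested. Here the second parent was on, and the median level was 3.93 CPM in the SF109 hybrids against 6.75 CPM in the other hybrids, a median ratio of 0.57.

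Along the genome the differences were spread over all chromosomes. The share of tested genes called ran from 26.5% on chromosome 12 to 34.2% on chromosome 13, with 34.1% on chromosome 5 and 31.9% on chromosome 1, beside 29.4% overall. On chromosome 4 lower genes outnumbered higher ones, 349 against 290 under TMM scaling. The balance of calls depends on the method, since library totals gave 4909 higher and 4929 lower genes over all chromosomes and limma voom 5763 and 6302. On chromosome 5 the higher ones led by 439 against 286. In 306 windows of 10 Mb with at least 20 tested genes the median share was 28.6%, and the quartiles were 24.3% and 34.6%. The highest was 49.6%, for 135 genes between 180000001 and 190000000 on chromosome 13, and the lowest 10.7%, for 122 genes between 40000001 and 50000000 on chromosome 15. On chromosome 4, the window from 10000001 to 20000000 had 20 higher and 28 lower of 102 genes and a median log2 difference of -0.22.

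The share of genes called differed with abundance. Among the genes of lowest mean level, in 4 classes of equal size, 24.0% were called, with a median absolute log2 difference of 1.11 among calls. The next classes upward had 34.2%, 33.1% and 26.1%, with 0.64, 0.38 and 0.29. In the lowest class 16.1% were higher and 7.9% lower, and in the highest 15.0% and 11.2%. Genes silent without SF109 could enter the test only through the SF109 hybrids, which favours higher calls at low level. The shares of higher and lower genes are therefore not comparable in the lowest class.

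The second question was whether the SF109 hybrids responded to drought differently. In the SF109 hybrids 11377 genes rose and 10295 fell under stress (62.7% of genes tested), and over the other 12 hybrids together, with more plants, 13187 rose and 11732 fell (72%). The test of the difference called 86 genes with a response higher and 68 with a response lower in the SF109 hybrids, 0.445% of the genes tested. An unadjusted p under 0.05 was found for 2591 genes. The same contrast gave 64 and 42 genes for hybrids of SF009, 134 and 145 for SF092, and 168 and 168 for SF193.

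These calls were fragile. The counts were 34 and 22 without the plants numbered 1, 25 and 18 without those numbered 2, and 12 and 9 without those numbered 3, while DESeq2 gave 198 and 132. With library totals in place of TMM scaling, 61 responses were higher and 96 lower, so the share of higher responses was 38.9% there and 55.8% with TMM. Treating each hybrid as 1 unit left 25 and 28, of which 12 and 5 were among the 86 and 68. Within a second parent the calls were 10 genes for SF279 (0.0289%), 39 for SF317 (0.113%), 20 for SF326 (0.0578%) and 31 for SF342 (0.0896%). The sign was the same with all 4 second parents for 71 of the 86 and 58 of the 68 genes.

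Among the 86 genes with a higher response, 56 fell under stress in the other hybrids, 16 rose there and 14 had no drought call. Of the 56, 24 fell less in the SF109 hybrids and 32 had an estimate of the opposite sign, and their median log2 drought response was 0.06 in the SF109 hybrids against -1.01 in the others. All 16 that rose in the others had a larger rise in the SF109 hybrids, with medians of 1.93 and 0.57. Among the 68 genes with a lower response, 46 rose in the other hybrids, and in the SF109 hybrids 19 of these had a smaller rise and 27 an estimate of the opposite sign, with medians of -0.17 and 0.89. The other 22 comprise 8 that fell in the other hybrids and 14 without a call. Since the genes were chosen by this difference, these values describe them and test nothing further.

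A difference in response entails one in level in at least 1 water supply, so the following describes where it lay and tests nothing. Of the 86, 53 were higher in stressed SF109 hybrids than in the others and 12 lower, while in control plants 24 were higher and 37 lower. Of the 68, 39 were lower and 5 higher under stress, and 10 lower and 37 higher in control plants. A mean difference over both water supplies was also called for 75 of the 86 and 47 of the 68 genes. Over all genes tested, the shares called were 29.4% for the mean, 20.6% in control and 23.1% in stressed plants.

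HanXRQChr04g0123931 (chromosome 4, 167893098 to 167896629, minus strand) had the largest lower response by the rule used. Control plants had 1.81, 3.79 and 7.63 CPM (lowest, median, highest) in the SF109 hybrids and 1.43, 4.06 and 8.66 CPM in the others, so they overlapped fully. Under stress the SF109 hybrids had 0 to 3.31 CPM (median 0.34) and the others 0.08 to 10.2 CPM (median 2.84). All 6 stressed plants at 0 belonged to SF109_SF279 and SF109_SF326, while SF109_SF317 and SF109_SF342 kept 0.67 to 3.31 CPM. The fitted difference in response was -3.69 ± 0.55 on the log2 scale (SE; adjusted p 1.99e-05, edgeR). Its size is not fixed by the data, because 2 of the 4 SF109 hybrids had no read under stress, and limma voom gave -2.50. Leaving out the plants numbered 3 gave -3.58 with an adjusted p of 0.0738.

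HanXRQChr16g0498401 (chromosome 16, 2478181 to 2480649, minus strand) rose less under drought in the SF109 hybrids, and it was already higher in their control plants. There it had 0 to 5.35 CPM (median 2.44) in the SF109 hybrids and 0 to 2.29 CPM (median 0.24) in the others. Under stress the SF109 hybrids had 0.54 to 11.3 CPM (median 4.93) and the others 0.10 to 22.6 CPM (median 7.70), and the ranges overlapped. The log2 drought response was 1.15 in the SF109 hybrids and 4.47 in the others, a difference of -3.32 ± 0.59 (SE; adjusted p 0.000548, edgeR). Without the plants numbered 1 or 3 the adjusted p was 0.0635 or 0.126. Line SF109 had a median of 6.30 CPM, above the medians of all other lines, which were at most 0.65 CPM.

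HanXRQChr17g0545911 (chromosome 17, 44209276 to 44212161, minus strand) fell under stress in the other hybrids, from a median of 10.99 CPM (range 2.38 to 40.1) to 4.06 CPM (0.83 to 7.88). The SF109 hybrids had a median of 2.74 CPM (0.30 to 7.51) in control and 3.45 CPM (0.78 to 28.1) in stressed plants. The 2 groups lay apart in their medians mainly in control plants, with overlapping ranges. The difference in response was 2.26 ± 0.43 on the log2 scale (SE; adjusted p 0.00147, edgeR). It was 2.10 with an adjusted p of 0.143 without the plants numbered 2, and 1.67 with 0.316 without those numbered 3. The stressed plant at 28.1 CPM was SF109_SF342 replicate 3.

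HanXRQChr15g0494271 (chromosome 15, 148910972 to 148926264, plus strand) rose under drought in both groups. In control plants the SF109 hybrids had 0.20 to 2.05 CPM (median 0.88) and the others 0.36 to 23.5 CPM (median 6.77), and hybrids of SF193 were as low, with 0.36 to 1.43 CPM. Under stress the SF109 hybrids had 7.72 to 530 CPM (median 325) and the others 7.38 to 490 CPM (median 193). The log2 response was 8.05 in the SF109 hybrids and 5.81 in the others, a difference of 2.25 ± 0.56 (SE; adjusted p 0.0424, edgeR). The adjusted p was 0.205 to 0.569 without any 1 plant number, 0.111 without SF009_SF279 (difference 2.05) and 0.581 with limma voom (2.01), so this call held in 5 of 10 alternatives.

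**Figure D4:**
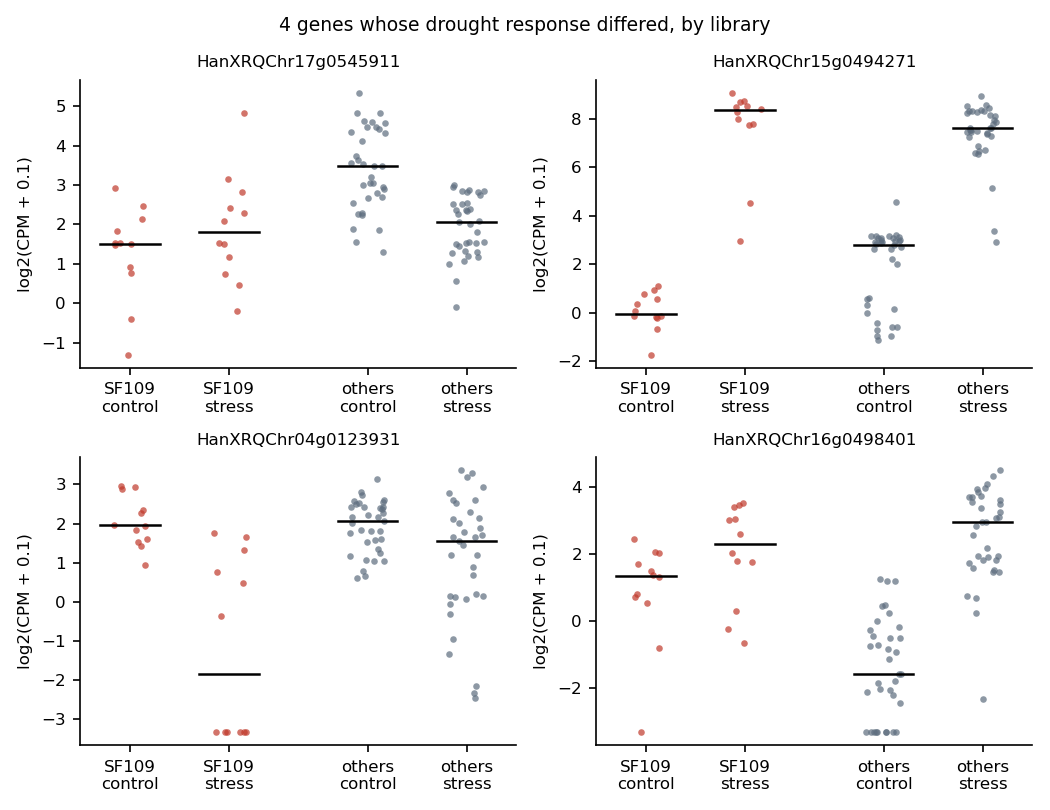
Level of 4 genes in control and stressed plants, as log2(CPM + 0.1), with the SF109 hybrids in red and the other hybrids in grey; each point is 1 library and each bar a median. Both genes in the upper row are lower in control plants of the SF109 hybrids; HanXRQChr04g0123931 is at 0 in 6 stressed SF109 plants, and HanXRQChr16g0498401 is higher in their control plants.

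Genes that responded to drought in the lines, whose plants are separate from the hybrids, gave a further reading. In the 8 lines 40.7% of 35877 genes changed under drought. All 46 line libraries entered under their labels, with stress replicate 3 of line SF326, whose line-specific transcripts went against its label, among them. The 7470 of them that rose and were tested in hybrids had a median log2 response of 0.76 in the SF109 hybrids and 0.77 in the others. Of these, 10 had a response called higher and 21 lower in the SF109 hybrids (0.415%, beside 0.445% of all genes). The 6973 genes that fell had medians of -1.14 and -1.19, with 29 responses called higher and 7 lower (0.516%). For the level, 28.8% of the risen and 20.5% of the fallen genes differed between SF109 and other hybrids, beside 33.2% of genes with no drought call in lines. The genes with a drought call had a higher median level, 3.73 and 3.74 on the log2 CPM scale against 2.20.

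The size of the response as a whole was measured by the slope of each hybrid's log2 stress minus control difference on the mean difference of the 8 lines, over all genes. A slope of 1 means a response as large as the lines' mean. The slopes were 1.68 for SF109_SF279, 1.26 for SF109_SF317, 1.64 for SF109_SF326 and 1.32 for SF109_SF342. The mean was 1.47 ± 0.22 (SD, n = 4 hybrids), against 1.49 ± 0.16 (SD, n = 12) in the other hybrids, so the SF109 hybrids lay within the range of the others, 1.13 to 1.75. The difference at equal second parent was -0.02, with a p of 0.852 in a two-sided exact permutation test over all choices of 1 hybrid per second parent, whose smallest possible p is 0.0039. Benjamini-Hochberg adjustment over the 3 values tested this way left 0.852.

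Single stressed plants moved the slopes of 2 SF109 hybrids. One plant of SF109_SF317 scored 0.64 while its other plants scored 1.56 and 1.57, and one of SF109_SF342 scored 0.84 beside 1.47 and 1.65. The remaining 10 of the 12 stressed SF109 plants lay between 1.47 and 1.77. Among the 35 other stressed plants the scores ran from 0.46 to 1.84. The same 2 plants had the lowest values of HanXRQChr15g0494271 among stressed SF109 hybrids, 7.72 and 23.1 CPM, and the second of them the 28.1 CPM of HanXRQChr17g0545911. Their part in those response differences was not tested.

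**Figure D5:**
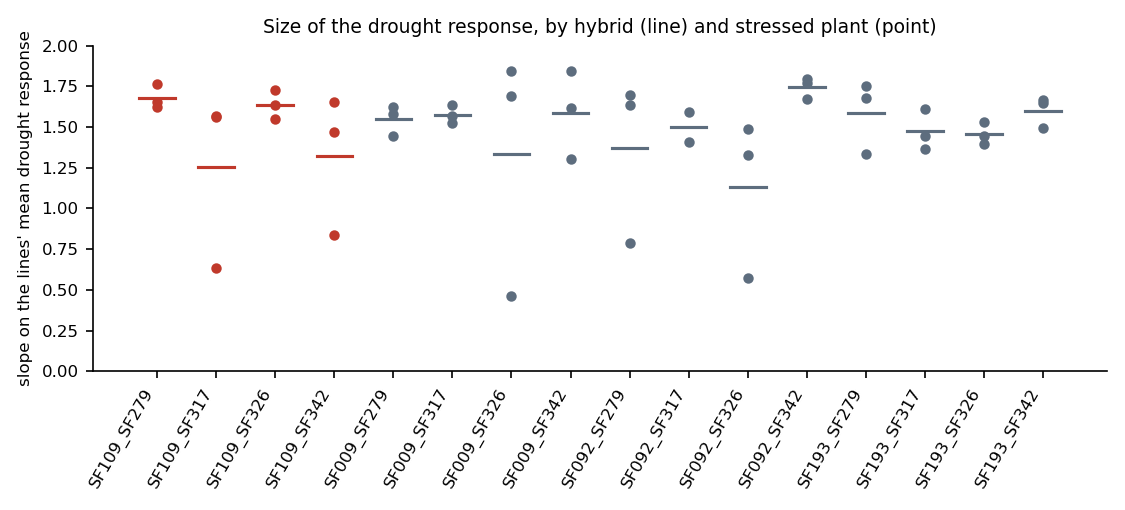
Slope of the drought response of each hybrid on the mean response of the 8 lines (short lines) and the score of each stressed plant against the mean of its hybrid's control plants (points); SF109 hybrids are in red. The SF109 hybrids have slopes of 1.26 to 1.68, within the range of 1.13 to 1.75 of the other hybrids.

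Transcripts of the organelles, which are inherited apart from the nuclear genome, were also compared. The mitochondrial share of counts was 1.26% ± 0.04 in the SF109 hybrids and 1.24% ± 0.12 in the others (SD, n = 4 and 12 hybrids), a difference of 0.02 percentage points (exact permutation p 0.781, adjusted 0.852). The plastid share was 0.189% ± 0.025 and 0.161% ± 0.025, and the SF109 hybrid was above the mean of the other 3 with each of the 4 second parents. Its difference of 0.0279 percentage points had an exact permutation p of 0.0234, which adjustment raised to 0.0703. In stressed plants alone it was 0.0418 (adjusted exact permutation p 0.0352) and in control plants alone 0.0140 (adjusted 0.852). These were adjusted beside the main p-values of the slope and the mitochondrial share, and not for the choice of water supply.

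Of 25 mitochondrial genes tested, 1 was called higher and 2 lower (12%), and of 6 plastid genes 1 was called higher, beside 29.4% of all genes tested. These 4 were chosen for naming after their values were seen. The plastid gene, HanXRQCPg0579761, had a median of 1879 CPM in the SF109 hybrids and 1501 CPM in the others, a log2 difference of 0.29 (adjusted p 0.00186, edgeR). It holds most of the plastid counts, so the plastid share and this gene are 1 observation, and the median log2 difference of the 6 plastid genes was -0.06. The mitochondrial genes moved less: HanXRQMTg0579681 by 0.11, HanXRQMTg0579251 by -0.13 and HanXRQMTg0579591 by -0.28.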

How the data were processed

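The authors deposited whole-number read counts per gene for 142 libraries, with columns for gene position according to the header. They also deposited CPM values that they had filtered, used here only to choose the genes and libraries of 1 alternative. Versions 3.16.5 of edgeR and 3.3.3 of R come from the submitters' processing notes. The sources used here give no aligner, counter, use of strand or genome build. Per the labels' protocols, plants were grown 1 to a pot and libraries were paired-end and oriented. The labels do not state that replicates are separate plants; p-values measure the spread between these libraries.

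From the counts, 17 ribosomal RNA genes (0.00237% of counts) were dropped and filterByExpr of edgeR 4.0.16 (R 4.3.3) kept 34590 of 58050 genes in 94 hybrid libraries. TMM scaling was followed by glmQLFit with 1 mean per hybrid and water supply; SF109 was set against the mean of the other 3 first parents within each second parent, averaged over second parents on the log scale. Calls have a Benjamini-Hochberg adjusted p under 0.05 over all genes tested. limma 3.58.1 and DESeq2 1.42.0 gave alternatives. Lines were fitted apart. The script was tested on simulated data.

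Named genes are the 2 largest differences in each direction of the level and of the drought response, whose mean log2 CPM reached 1 and which had 1 sign in all 8 combinations of second parent and water supply, or with all 4 second parents for the response. Members and lists were chosen with earlier results of these data known. Intervals from pooled counts (95%, exact) cover counting error only. The 2 left-out libraries enter 1 alternative.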

Additional observations from a re-analysis of the deposited data

Results flagged for a closer look

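The drought response differed between SF109 and other hybrids, by the test of the difference itself, for 86 genes with a higher and 68 with a lower response. Among the named genes, HanXRQChr17g0545911 (log2 difference 2.26) and HanXRQChr15g0494271 (2.25) had a higher response and HanXRQChr04g0123931 (fitted -3.69) and HanXRQChr16g0498401 (-3.32) a lower one; each lost its call in at least 1 of 10 alternatives. The SF109 difference varied between second parents for 3875 genes.

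The library labelled SF009_SF279 control replicate 1, which entered no comparison, held 78.8% of the genes on in line SF009 alone, while the 5 libraries of that hybrid that were used held 0% to 18.2%.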

How the results depend on the processing

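The counts of genes higher and lower in the SF109 hybrids stayed within 1.5 times in 21 and 22 of 23 alternatives. The exceptions were 648 and 853 genes with 16 hybrid means as units, and 3682 higher genes in the additive model. Leaving out a plant number gave 4367 to 4877 higher and 3162 to 3266 lower genes; these fits, and those without a parent's hybrids, kept the dispersion trend and the genes of the full set.

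The drought response counts stayed within 1.5 times in 12 and 14 of 23 alternatives. Higher and lower responses numbered 198 and 132 with DESeq2, 44 and 35 in the additive model, 25 and 28 with hybrid means, 53 and 35 without hybrids of SF193, 56 and 36 without second parent SF279, and 29 and 28 without SF317. Higher responses were 141 without hybrids of SF009 and 42 without SF342. Leaving out a plant number gave 12 to 34 higher and 9 to 22 lower.

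The count that varied with the second parent was 2393 without SF326 and 2757 to 2949 without another second parent. It was 2234 without SF009_SF279 and the SF326 hybrids (an alternative chosen after seeing the data, like that without SF009_SF279), and 2035 to 3143 without a plant number. It was not computed with DESeq2, hybrid means or the additive model. The slope difference was 0.0049 with median plant scores, 0.0046 with the 2 left-out libraries kept, and -0.0599 to 0.0402 without a plant number. The mitochondrial difference was -0.0346 with medians of plants, -0.0670 in control plants and -0.0091 to 0.0687 without a plant number. The plastid difference passed in stressed plants alone, 0.0418, without adjustment for that choice of plants, and was 0.0215 to 0.0379 without a plant number. The line comparison gave 7045 to 7347 genes without a plant of SF109 per water supply. The cause of these changes was not tested.

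Same-numbered plants were not seen to deviate together (correlations across genes of 0.09, 0.01 and -0.08 between SF109 and other hybrids). Differently numbered plants had correlations from -0.15 to 0.13, so this check cannot settle whether the numbers pair plants. A replicate block gave 5788 higher and 4386 lower genes, 87 and 67 responses, and 3876 genes varying with the second parent.

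Among calls in the class of lowest level the median absolute log2 difference was 1.11, against 0.29 in the highest. Reads shared between near-identical gene copies could not be assessed.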

Other observations

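A plastid gene, HanXRQCPg0579741 (2064 to 3566 on the plastid sequence), set line SF109 apart from its own hybrids. It had 1.97 to 9.94 CPM (median 5.39) in the 6 plants of line SF109, and 0 to 1.75 CPM (median 0.59) in the 24 plants of the SF109 hybrids. The ranges did not overlap. The second-named lines had 0 to 1.12 CPM (median 0.47) and the other hybrids 0 to 1.96 CPM (median 0.47). Among the other first-named lines the medians were 7.59 CPM in SF009, 5.06 in SF193 and 0.37 in SF092. The gene was chosen after its values were seen, for its difference between line SF109 and the second-named lines, and no test was made.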
